A study of Rattus norvegicus and Mus musculus with 3 samples.

Results

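The genes described here are the potassium channel genes of the hippocampus, taken by symbol: Kcn followed by a letter and a digit (Kcna to Kcnv), or Kcnip. Symbols of non-coding transcripts (Kcnd3os and Kcnq1ot1, both in the mouse table) were left out. This gave 85 genes among the 30438 listed for each rat and 85 among the 34714 listed for the mouse, in 17 subfamilies. Of these, 84 carried the same symbol in both species, and the remaining rat gene, Kcne5, was paired with mouse Kcne1l through a RefSeq synonym. Expression was profiled by RNA sequencing of total hippocampal RNA in 3 libraries, 1 per group. One came from a rat labelled Sham and one from a rat labelled 2VO, both of wild-type genotype and aged 3 to 4 months. In this field 2VO usually stands for tying off both common carotid arteries, which lowers blood flow to the forebrain, and Sham for the same surgery without it; the labels used here do not spell either out. The third came from a 6 month old mouse of wild-type genotype from the 3xTg-AD line, whose transgenic members model Alzheimer's disease; transgenic animals were not analysed here. Whether a library holds RNA of 1 animal or of several is not stated. Because a group is a single library, differences carry no error and were not tested; they describe these libraries rather than the conditions.

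Potassium channels let potassium ions pass the cell membrane, and so set the resting potential, shape the action potential and limit repetitive firing. Voltage-gated subunits assemble as tetramers around 1 pore, tandem-pore (K2P) subunits carry a pair of pore loops each, and accessory proteins such as the Kcne peptides and the calcium-binding KChIP proteins (Kcnip) form no pore. In hippocampal pyramidal cells the Kv4 channels with their KChIP partners carry the dendritic A-type current, the Kv7 channels carry the M-current that muscarinic receptors close, and Kir3 channels carry the slow inhibition that GABA-B receptors open. In astrocytes Kcnj10 buffers the potassium that active neurons release.

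What the pore-forming members share beyond their names is the selectivity filter, a short run of residues that strips water from potassium ions. Its codons are shown for members whose values stand out below and for Kcnj9, whose values differed little, from the longest mouse coding sequence of each gene in GENCODE M21, 5′ to 3′ on the coding strand. The capitals mark the in-frame stretch that matched ACNNNNGGNTANGGN or ACNNNNGGNTTNGGN; Kcnk9 holds 2, one for each pore loop.
Kcnf1: atgaccACAGTGGGCTATGGTgacatc
Kcnv1: atgactACAGTAGGATATGGGgacatt
Kcnk9, first loop: atcacaACTATCGGATATGGAcatgct
Kcnk9, second loop: ttgactACTATAGGGTTCGGCgatttt
Kcnt1: ttctcaACTGTGGGCTTCGGTgatgtg
Kcnj9: gagaccACCATCGGCTATGGGcaccgg

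On the mouse build GRCm38 the capitals of Kcnf1 lie at chr12:17175061-17175075 on the minus strand, in coding exon 1. Those of Kcnv1 lie at chr15:45109289-45109303 (minus strand, exon 3). The second Kcnk9 stretch lies at chr15:72512719-72512733 (minus strand, exon 2), while its first is split by an intron between exons 1 and 2. The stretches of Kcnt1 and Kcnj9 lie at chr2:25894367-25894381 (plus strand, exon 11) and chr1:172326184-172326198 (minus strand, exon 3). All are coding sequence. GRCm38 is an older build than the GRCm39 named in the submitters' notes, so these positions describe the sequences only.

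One or the other of these 2 motifs, searched in frame on the coding strand, was found in 65 of the 85 members and in 0.987% of 21477 other mouse coding genes. At least 2 matches were found in 11 of the 14 K2P genes and in 0 members of the other subfamilies. The shorter core, GGNTANGGN or GGNTTNGGN, was found in 76 members, against 16.4% of the other coding genes. The 9 members without it were the 5 Kcne and the 4 Kcnip genes, the accessory subunits. Members that keep the core but lack the leading ACN codon were 7 of the 8 Kcnh genes, 3 of the 4 Kcnn genes and Kcnj14. A match describes letters of the coding sequence and was not read as a measure of function.

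The authors deposited normalized values whose unit is not stated in the sources used here; they are called units below. They resemble values corrected for gene length, but nothing states it, so results compare the same gene between libraries. Where genes are ranked by value, the rank describes the deposited values and is not read as an order of transcript abundance. A level of at least 1 unit was reached by 60 members in Sham (70.6%), 63 in 2VO (74.1%) and 60 in the mouse (70.6%). For all listed genes the shares were 44.3%, 44.6% and 36.8%. Members listed at 0 were Kcna10, Kcne1 and Kcnu1 in Sham, these and Kcnj1 and Kcnk7 in 2VO, and Kcnj1 and Kcnk16 in the mouse. The members together made up 0.240% of the summed values in Sham, 0.255% in 2VO and 0.302% in the mouse. Of the CA pyramidal markers 0 of 10 were listed at 0 in either rat, and of 10 dentate granule cell markers only Tdo2 was. A mean of at least 1 unit over both rats was reached by 9 of the CA pyramidal and 7 of the dentate granule cell markers. A value above 0 does not by itself show that a cell layer was present.

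In the 2VO library the potassium channel genes lay mostly close to their Sham values, and the few at least 1.5-fold apart were higher. Of the 85 members 60 had a mean of at least 1 unit over both rats; the log2 of 2VO over Sham, each with 1 unit added, was above 0 in 41 of them and below 0 in 19 (36 above 0 after upper quartile scaling). Across all 13550 genes with such a mean it was above 0 in 58.7%. At least 1.5-fold higher in 2VO were Kcnk9, Kcnip3, Kcnf1 and Kcnv1, 4 of the 60 measured members, beside 1.51% of all measured genes (2.48% in either direction). The share depends on level. At means of 1 to 5 units, where Kcnk9 and Kcnf1 lie, 4.17% of all genes passed 1.5-fold in either direction, beside 2 of 22 members. At 5 to 20 units 1.92% did, beside 1 of 26 members, and at 20 to 1000 units 1.34%, beside 1 of 12. At least 1.5-fold lower were 0 members, beside 0.967% of all genes; at 2-fold the count of members was 0 in both directions, beside 0.244% of all genes higher and 0.199% lower. The 25 members that did not reach the mean were Kcna5, Kcna7, Kcna10, Kcne1, Kcne3, Kcne4, Kcng3, Kcnh5, Kcnh6, Kcnh8, Kcnj1, Kcnj5, Kcnj8, Kcnj13, Kcnj15, Kcnk5, Kcnk6, Kcnk7, Kcnk13, Kcnk15, Kcnk16, Kcnk18, Kcnn4, Kcnq1 and Kcnu1. Of these the highest value in either rat was 1.07 units, for Kcnh6 in 2VO. With 60 members, counts this small describe the named genes and are not read as a property of the family. The median log2 ratio was 0.10 over the 60 members and 0.04 over all measured genes. Its SD was 0.28 over the members and 0.24 over all genes, and the central 95% of all genes ran from -0.41 to 0.50. Over all genes, the excess of higher over lower ones depended on scaling. Of all genes past 1.5-fold, 61.0% were higher as deposited and 45.3% after the libraries were brought to equal upper quartiles, while the members past 1.5-fold were then 3 higher and 0 lower.

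**Figure D1:**
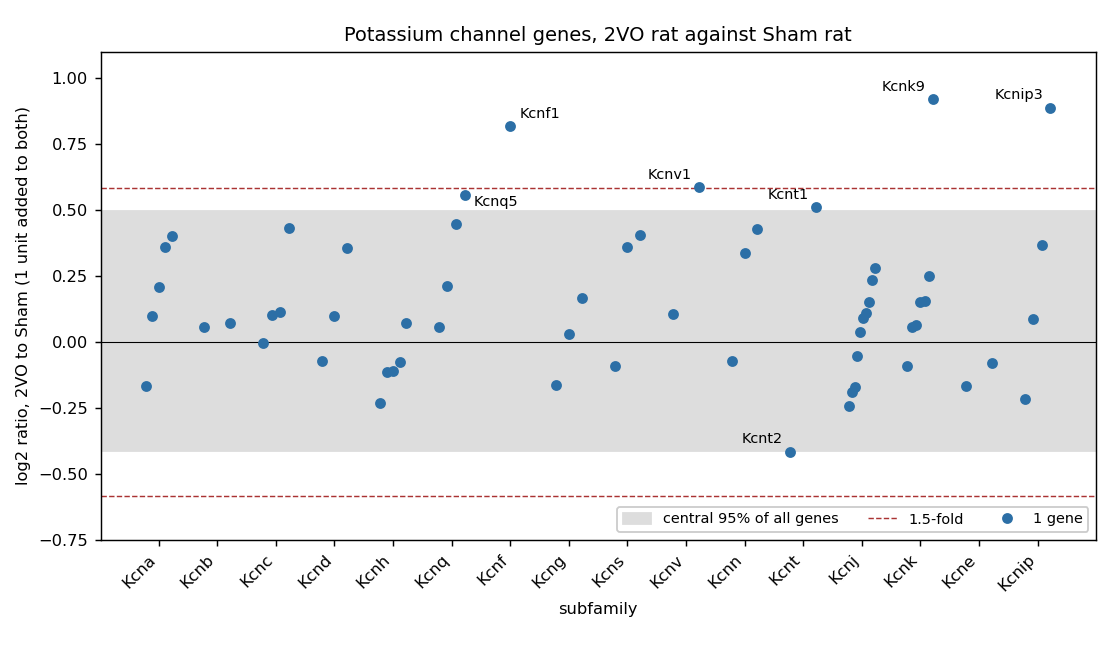
Log2 ratio of the 2VO to the Sham library (vertical axis, each value with 1 unit added) for the 60 measured members, by subfamily; each point is 1 gene, the grey band holds the central 95% of all 13550 measured genes and the dashed lines mark 1.5-fold. Kcnk9, Kcnip3, Kcnf1 and Kcnv1 reach the upper line and no member reaches the lower one.

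**Figure D2:**
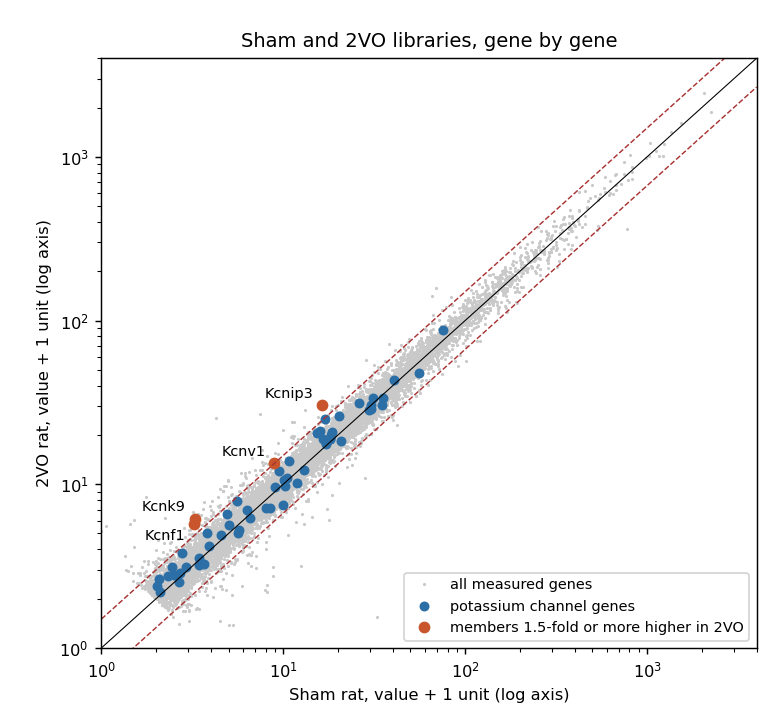
Value plus 1 unit in the 2VO rat (vertical, log axis) against the Sham rat (horizontal, log axis), 1 point per gene; grey points are all measured genes, blue points the members, orange points the 4 members at least 1.5-fold higher in 2VO. The solid line marks equal values and the dashed lines 1.5-fold, and most members lie between the dashed lines.

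Among the shaker-type Kv1 genes, which encode low-threshold axonal and dendritic channels, 4 of 5 measured members were higher in 2VO and none passed 1.5-fold. Kcna1 was 19.3 units in Sham, 25.1 in 2VO and 25.4 in the mouse, and Kcna2, its usual partner in axons, was 14.98, 20.1 and 17.5. Kcna6 was 15.5 and 18.0 in the rats, and Kcna3, known also from lymphocytes and microglia, was 2.93 and 3.21. Kcna4, the Kv1 subunit that inactivates rapidly by itself, was the 1 lower member, at 7.06 in Sham and 6.17 in 2VO. Kcna5, Kcna7 and Kcna10 stayed below 1 unit in all 3 libraries. Of the Kv2 genes, which encode slow delayed rectifiers of the soma, Kcnb2 was 1.103 and 1.19 in the rats.

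The Kv3 genes encode channels that repolarize fast enough for high-frequency firing, as in parvalbumin interneurons. Kcnc2 was 14.3 units in Sham against 19.7 in 2VO (log2 ratio 0.43), whereas Kcnc1 was 17.4 and 18.9 and Kcnc4 was 29.4 and 29.4. Kcnc2 was thus further from its Sham value than Kcnc1 or Kcnc4. Pvalb itself was 37.6 in Sham and 37.0 in 2VO. Kcns3, a modifier subunit found in those interneurons, was 2.82 and 4.05.

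The A-type Kv4 genes and their KChIP partners did not move together. Kcnd2, the main dendritic A-type subunit of pyramidal cells, was 34.4 units in Sham and 32.6 in 2VO, and Kcnd1 was 3.55 and 3.87. Kcnd3 was 8.42 and 11.1, a log2 ratio of 0.36. Kcnip3, which encodes KChIP3, also known as calsenilin and as the transcriptional repressor DREAM, was 15.3 in Sham against 29.3 in 2VO (log2 ratio 0.89); the mouse stood between them at 25.1. Its relative Kcnip2 went the other way, at 54.9 and 47.1, with the mouse above both at 73.4. Kcnip4 was 9.70 and 12.8, and Kcnip1, found largely in interneurons, was 8.04 and 8.61. The ratio of Kcnip3 to Kcnip2 within a library, which no scaling of the library can change, was 0.280 in Sham, 0.621 in 2VO and 0.341 in the mouse. It was therefore 2.22 times as high in 2VO as in Sham. The pair joins the Kcnip gene furthest above its Sham value to the only lower one. Like the other pairs below, it was chosen after its values were seen. The partner gene Dpp10, a membrane protein of the same A-type complex, was 2.72 in Sham and 4.84 in 2VO, and its relative Dpp6 was 55.1 and 60.4.

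All 4 measured Kv7 genes were above their Sham value in 2VO as deposited, though none reached 1.5-fold with 1 unit added. Kcnq5 was 15.98 units in Sham against 23.98 in 2VO, and its log2 ratio of 0.56 placed it just under the line; the mouse was at 15.4, next to Sham. Kcnq3, a subunit of the classical M-channel, was 17.1 and 17.8 in the rats, and it lay below its Sham value when the libraries were brought to equal upper quartiles, which left 3 of 4 higher. Kcnq1, known mainly from heart and epithelia, was 0.118 and 0.104. The ratio of Kcnq5 to Kcnq3 was 0.937 in Sham, 1.35 in 2VO and 0.730 in the mouse. Chrm1, the muscarinic receptor that closes the M-current, was 51.1 in Sham and 58.5 in 2VO.

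The EAG, ERG and ELK genes (Kcnh) leaned the other way, with 4 of 5 measured members lower in 2VO and a median log2 ratio of -0.11. Kcnh2, the ERG channel gene known from cardiac long QT syndrome, was 7.45 units in Sham and 6.202 in 2VO. Kcnh3, a forebrain ELK channel, was 29.4 and 27.9, Kcnh7 was 4.71 and 4.28 and Kcnh4 was 2.45 and 2.19. With 1 unit added, the 2VO values were 0.852, 0.949, 0.925 and 0.925 of the Sham values of Kcnh2, Kcnh3, Kcnh7 and Kcnh4, so each difference was small. Kcnh1 was 9.12 and 9.63. Over all 8 Kcnh genes without the filter on low values, 4 were higher and 4 lower; Kcnh6 was 0.565 in Sham and 1.07 in 2VO, too low to pass.

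Subunits that form no working channel alone but join Kv2 channels and alter their gating (Kcnf, Kcng, Kcns and Kcnv) numbered 10, of which 9 were measured and 7 were higher in 2VO (6 after upper quartile scaling). Kcnf1, expressed in cortical and hippocampal neurons, was 2.23 units in Sham against 4.70 in 2VO (log2 ratio 0.82), and the mouse lay well above both at 14.4. Kcnv1 was 7.94 and 12.4, a log2 ratio of 0.59 and just inside the 1.5-fold line, with the mouse lower at 4.20. Under each scaling that brought the libraries to a common level Kcnv1 dropped out of the count while Kcnf1 stayed in it. The remaining members lay closer: Kcns1 was 1.06 and 1.65, Kcns2 11.97 and 11.2, Kcng1 17.5 and 19.8, Kcng2 16.1 and 16.5 and Kcng4 4.66 and 4.05. The Kv6 genes (Kcng) had no settled direction, with 2 of 3 higher as deposited and 1 of 3 after upper quartile scaling.

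Channels opened by intracellular calcium or sodium limit firing after spikes. Of the small-conductance SK genes, Kcnn1 was 3.90 units in Sham and 5.59 in 2VO and Kcnn3 was 1.46 and 2.11. Kcnn2, which dominates the SK current of CA1 pyramidal cells, was 9.19 and 8.69. Kcnn4, a channel of blood and immune cells, was 0.147 and 0.141. The sodium-activated pair went in opposite directions: Kcnt1 (Slack) was 4.56 in Sham and 6.93 in 2VO, and Kcnt2 (Slick) was 8.92 and 6.43. Kcnt2, with a log2 ratio of -0.42, was the measured member furthest below 0. The ratio of Kcnt1 to Kcnt2 was 0.511 in Sham, 1.08 in 2VO and 2.89 in the mouse, so it was 2.11 times as high in 2VO as in Sham. The sum over both genes hardly differed between the rats, at 13.5 and 13.4. Kcnu1, known from sperm, was listed at 0 in both rats.

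The inward rectifier genes (Kcnj) were divided, with 6 of 10 measured members higher and 4 lower in 2VO, or 5 and 5 after upper quartile scaling; their summed value was 159.1 units in Sham and 158.8 in 2VO. The neuronal Kir3 genes, whose channels are opened by G proteins, differed little: Kcnj3 was 28.4 in Sham and 27.4 in 2VO, Kcnj6 was 19.8 and 17.5 and Kcnj9 was 30.1 and 32.5. Gabbr1 and Gabbr2, the GABA-B receptor genes that act through them, went from 221 to 235 and from 51.4 to 61.7 between Sham and 2VO. Kcnj11, the pore of the ATP-sensitive channel that opens when cellular energy falls, was 10.96 in Sham and 9.12 in 2VO. Its regulatory partner Abcc8 was 12.8 and 10.5, lower like Kcnj11. Kcnj4, a strong rectifier of forebrain neurons, was 33.7 and 29.4, while the strong rectifiers Kcnj2 and Kcnj12 were at 1.33 and 1.75 and at 2.46 and 2.55.

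Glial and vascular rectifiers could be set beside markers of their cells. Kcnj10, the astrocyte channel, was 24.9 units in Sham, 30.5 in 2VO and 25.6 in the mouse. Its partner Kcnj16 was 1.69 and 1.87 in the rats. Of 10 astrocyte markers 5 were higher and 5 lower in 2VO, with a median log2 ratio of 0.00041 (3 and 7 after upper quartile scaling), and their summed value was 2107 in Sham and 1828 in 2VO. That sum was carried down by Gfap, at 778 and 360, so Kcnj10 and Gfap differed in opposite directions. Kcnj10 is also made by oligodendrocytes, whose 10 markers were all higher in 2VO, with sums of 3870 and 4863; the part this plays in the Kcnj10 value was not tested. Kcnj8, known from pericytes and smooth muscle, was 0.881 and 1.01, and its partner Abcc9 was 0.614 and 0.671, both with a mean below the filter. Of 9 pericyte and smooth muscle markers, Abcc9 among them, 7 were measured. Of these 3 were higher and 4 lower in 2VO, with a median log2 ratio of -0.026. In bulk RNA, fewer cells of a type and less RNA per cell cannot be told apart.

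K2P genes encode leak channels that hold the resting potential. Of 14 members 7 were measured, and 6 of these were higher in 2VO as deposited and 4 after upper quartile scaling. Kcnk9, an acid-sensitive leak channel of the TASK group, was 2.26 units in Sham and 5.17 in 2VO; its log2 ratio of 0.92 was the highest of all measured members. In the mouse it was 19.3, well above both rats. Kcnk3, its closest relative, was 1.02 and 1.40. Kcnk1, by contrast, was 16.1 and 16.7, and the ratio of Kcnk9 to Kcnk1 was 0.140 in Sham and 0.309 in 2VO. The mechanically gated and lipid-sensitive channels were also close, Kcnk2 at 5.595 and 5.18 and Kcnk4 at 9.49 and 9.98. Kcnk12 was 5.28 and 5.98, and Kcnk10 was 1.504 and 1.79. Kcnk13, found in microglia, was 0.559 and 0.428, below the filter. Of 10 microglial markers 8 were lower in 2VO and 2 higher, with sums of 205 and 160. Past 1.5-fold were 3 lower and 1 higher (4 and 0 after upper quartile scaling), the higher one being P2ry12 at 5.49 and 8.83. The part of these markers' cells in the Kcnk13 value was not tested.

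Of the 5 Kcne accessory genes only Kcne2 and Kcne5 were measured, and both were slightly lower in 2VO. Kcne2 was 1.66 units in Sham and 1.52 in 2VO, and Kcne5 was 2.66 and 2.26. Kcne2 and Kcnj13 are strongly expressed in choroid plexus epithelium. Kcnj13 was 0.122 and 0.113, below the filter. Of the 8 choroid plexus markers only Ttr and Folr1 were measured, at 0.434 and 4.75 units and at 0.798 and 1.54. Without the filter on low values, 6 of the 8 were higher in 2VO and 2 lower. The lower ones were Aqp1, at 0.253 and 0.119, and Kl, at 0.0496 and 0.0369, both below the filter. Prlr was listed at 0 in Sham. The summed values over the 8 were 1.78 and 7.17, a gap that comes mostly from Ttr alone.

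**Figure D3:**
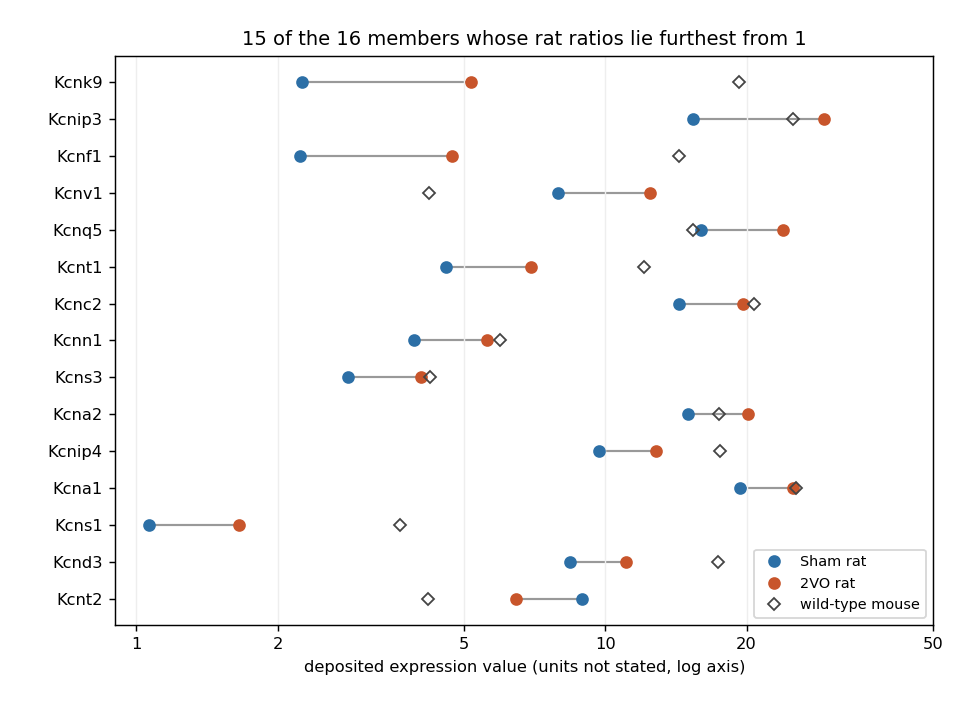
Deposited value (horizontal, log axis, unit not stated) of 15 of the 16 measured members whose rat ratios lie furthest from 1; circles are the Sham and 2VO rats, joined by a line, and open diamonds the wild-type mouse, 1 library per point. In 14 of the 15 the 2VO point lies to the right of the Sham point, the exception being Kcnt2, and the mouse lies far to the right of both rats for Kcnk9 and Kcnf1.

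Genes that work with these channels but fall outside the symbol rule were also mostly close. Of 9 related subunit genes 6 were measured, 3 higher and 3 lower (2 and 4 after upper quartile scaling), and none passed 1.5-fold. Kcnma1, the BK channel pore, was 9.70 units in Sham and 12.1 in 2VO. Its neuronal beta subunit Kcnmb4 was 32.4 and 32.3, and the Kv1 beta subunit Kcnab2 was 239 and 251. Of 21 anchoring and complex partners 17 were measured and 14 were higher, 12 after upper quartile scaling; Dpp10 alone passed 1.5-fold. Cntnap2 and Cntn2, which cluster Kv1 channels beside the node of Ranvier, were higher in 2VO, at 7.59 against 11.8 and 20.2 against 27.3, along with Kcna1 and Kcna2. Sptbn4, a spectrin that anchors Kv7 channels at the axon initial segment, was 64.1 and 50.1, whereas Ank3 was 36.0 and 38.1. Of 23 receptors, G protein subunits, calmodulins and enzymes that act on the channels, 16 were higher and 7 lower (13 and 10 after upper quartile scaling) and none passed 1.5-fold; Gnb5 was 49.1 and 35.2. The calmodulin genes Calm2 and Calm3, whose product gates SK and Kv7 channels, were at 647 and 592 and at 1242 and 1192 in Sham and 2VO.

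Several marker groups differed between the same 2 libraries. Of 10 general neuronal markers 9 were higher in 2VO, with a median log2 ratio of 0.37 and summed values of 1640 and 2071. Cortical layer markers, listed to look for tissue next to the hippocampus, were higher in 6 of 7 measured genes. Past 1.5-fold were 3 (Lamp5, Fezf2 and Rgs4, with log2 ratios of 1.104, 0.85 and 1.103). The rest lay closer to Sham: Rorb, Cux2, Ctgf and Tbr1 had log2 ratios of 0.287, 0.09, 0.074 and -0.054. The sums were 50.9 and 85.7 over 8 genes, with none listed at 0. Whether these transcripts came from neighbouring tissue or from the hippocampus itself was not tested. CA pyramidal markers were lower in 6 of 9, with sums of 478 and 381. GABAergic markers were higher in 7 of 10 (6 after upper quartile scaling), with sums of 395 and 406. Ependymal markers, from the lining of the ventricle, were higher in 6 of 7 measured genes, with a median log2 ratio of 0.48, 2 of them past 1.5-fold (1 after upper quartile scaling), and sums of 14.1 and 21.2 over 8 genes with none listed at 0. Of 6 blood markers 3 were measured and all 3 were lower in 2VO, though by unequal amounts. Only the T cell gene Cd3e lay far from Sham, at 7.15 units in Sham against 1.199 in 2VO (log2 ratio -1.89). Hba1 and Hbb stayed close to Sham (log2 ratios -0.138 and -0.00298). The part of these marker differences in the values of Kcnk9, Kcnip3, Kcnf1 and Kcnv1 was not tested, and with 1 library each a difference in dissection and a difference between Sham and 2VO cannot be told apart.

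The mouse library could be compared with the rats only by level, since species, age and annotation differ together. Over the 85 paired members Spearman's rho was 0.988 between Sham and 2VO, 0.907 between mouse and Sham and 0.926 between mouse and 2VO. These describe genes, which are not independent, and the coefficients share libraries. Of the 59 members with a shared symbol and a mean of at least 1 unit over the 3 libraries, 4 were at least 2-fold higher in the mouse than in both rats and 4 at least 2-fold lower. Over all 11457 such symbols the shares were 4.48% and 9.54%.

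The higher ones were Kcnk9 and Kcnf1, given above, with Kcnj16 and Kcnn2. Kcnj16 was 6.07 units in the mouse against 1.69 in Sham and 1.87 in 2VO, while its partner Kcnj10 was 25.6 in the mouse against 24.9 and 30.5. Kcnn2 was 24.1 in the mouse against 9.19 and 8.69. The 4 lower ones had small values: Kcng4 was 1.29 in the mouse against 4.66 and 4.05, Kcnj14 was 0.821 against 4.05 and 4.61, Kcnv2 was 0.0206 against 1.90 and 2.13, and Kcne2 was 0.170 against 1.66 and 1.52. Kcnk9 and Kcnf1 were thus counted both as at least 1.5-fold higher in 2VO and as at least 2-fold higher in the mouse than in both rats. The order Sham, 2VO, mouse in their values was not particular to them. Kcnj16, Kcnt1 and Kcnd3 were among the other members with it, whereas Kcnn2 did not have it. Other members lay close across species: Kcnj3 was 28.4, 27.4 and 24.1 units in Sham, 2VO and mouse, Kcnq3 17.1, 17.8 and 21.1, and Kcnk12 5.28, 5.98 and 4.74.

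**Figure D4:**
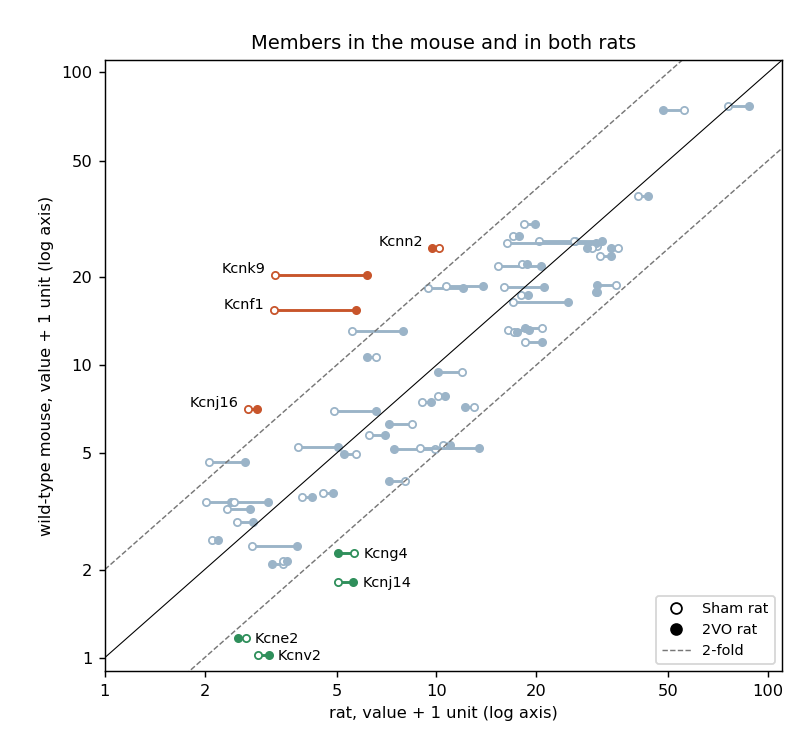
Value plus 1 unit in the wild-type mouse (vertical, log axis) against the rats (horizontal, log axis) for the 59 members with a shared symbol and a mean of at least 1 unit; each line joins the Sham rat (open circle) to the 2VO rat (filled circle) for 1 gene, the solid line marks equal values and the dashed lines 2-fold. Kcnk9, Kcnf1, Kcnj16 and Kcnn2 lie above the upper dashed line with both rats, and Kcng4, Kcnj14, Kcne2 and Kcnv2 below the lower one.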

How the data were processed

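Total RNA of hippocampus was extracted with TRIzol, and per the labels' protocols 1 library per group was made with a TruSeq kit. The authors deposited a table per library with a single normalized signal for each gene. Its unit, its quantifier, the annotation and the depth are not stated in the sources used here, so counting intervals and detection floors could not be given. The submitters' processing notes name fastp 0.21.0, HISAT2 2.1.0, DESeq2, GRCm39 and mRatBN7.2, but not what each was used for. Values were compared as deposited, as log2 of 2VO over Sham after adding 1 unit to each, which makes ratios of low genes too small. Genes needed a mean of 1 unit or more. Counts are at 1.5-fold, and at 2-fold for the mouse against both rats. No test was run.

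The members and gene lists were chosen with earlier results of these data known. Named genes were, per subfamily, the one with the highest mean and the one with the ratio furthest from 1, all past a threshold and those beside it, with others as examples; a few genes within this rule were left unreported. The member pairs whose ratios are given were chosen after their values were seen. Selectivity filter motifs were searched in GENCODE M21 coding sequences. Alternatives were 3 scalings, 0.25 or 4 units added, dropping the filter or raising it to 5 units, and centring on a lowess trend (span 0.3). The calculation was tried on simulated data with planted changes larger than 1.5-fold, which does not show how reliable the 1.5-fold counts are. The work used Python 3.11.15 with statsmodels 0.14.6, scipy 1.17.1, pandas 2.3.3, matplotlib 3.10.9 and numpy 2.4.6.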

Additional observations from a re-analysis of the deposited data

How the results depend on the processing

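Under 8 alternatives the median log2 ratio of the members stayed above 0, between 0.04 with upper quartile scaling and 0.11 with 0.25 units added, and lay above the median of all genes in each. Adding 0.25 or 4 units cannot change the sign of a ratio, so those settings could not bring the median below 0. Without the filter the median of all genes was 0, since genes listed at 0 in both rats then enter, so lying above it says little. The count of members at least 1.5-fold lower was 0 in every setting. The count at least 1.5-fold higher was 4 as reported, 3 under each of the 3 scalings and the lowess centring, 1 with 4 units added before the log and 2 when the filter was raised to a mean of 5 units. Kcnip3 was counted in all 9 settings, Kcnk9 and Kcnf1 in 7 and Kcnv1 in 4. With 4 units added the low genes Kcnk9 and Kcnf1 shrink towards a ratio of 1 by construction, and with the stricter filter they are left out. For the mouse against both rats the count of higher members ran from 3 to 6. The count of lower members was 0 with 4 units added and 0 with the filter at 5 units, against 4 as reported, since these members are low. No paired analysis was possible because each group holds 1 library. Depth and unit are unknown and no group has a second library, which limits all values given.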
